A study of Mus musculus with 2 samples.

Results

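Maturing thymocytes are here the cells of 2 single-cell RNA libraries that carried T cell RNA together with Tox and Sox4 but no RNA of the receptor-rearranging genes, and 202 of the 13436 cells past the cell filters met that rule. Of these, 85 came from the library taken 28 days after injury (4 weeks) and 117 from the library taken 14 days after injury (2 weeks). A cell was a member if it had at least 3 unique molecules (UMIs) of Cd3d, Cd3e and Cd3g together, at least 1 UMI each of Tox and Sox4, none of Rag1, Rag2 or Ptcra, at most 2 of Mki67, Top2a and Hist1h1b together, fewer than 10 of Nkg7 and Ccl5 together, none of Cd79a, and at most 3 of C1qa, C1qb and C1qc together. The members were thus chosen by the UMI counts of these genes in the same cells, so the levels of the genes in it are a description, and no test is given for any difference from other cells.

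Both libraries came from male C57BL/6J mice, 8 weeks of age, whose carotid artery had been injured with a guide wire to induce intimal hyperplasia. The design gives an n of 18 per time without saying how animals were pooled, each time is 1 library, and no difference between times has a replicate check. All intervals given are 95% intervals for counting error only. No uninjured vessel was analysed here. The source is labelled carotid artery throughout, whereas the extraction protocol speaks of aortic grafts, from which it dissected the adventitia before digestion.

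A thymocyte passes through a stage at which both co-receptors, CD4 and CD8, are on its surface while it rearranges its antigen receptor with the Rag enzymes. If that receptor recognises self-peptide weakly, the cell is positively selected: rearrangement stops, CD5 and CD69 rise with receptor signalling, and TOX, LEF1, TCF-1 and SATB1 guide the choice between the CD4 and CD8 lineages. Strong recognition instead leads to deletion, in which BIM (Bcl2l11) takes part, or to agonist lineages such as regulatory T cells, and Helios (Ikzf2) marks many such strongly signalled cells. Selected cells enter the medulla with CCR7, then switch on KLF2, S1PR1 and the interleukin 7 receptor, and leave. Thymocytes normally mature in the thymus. Where the cells of these vessel libraries came from was not tested.

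The members made up 1.06% (0.849 to 1.31) of the 8009 kept cells at 4 weeks and 2.16% (1.79 to 2.58) of the 5427 kept cells at 2 weeks. The difference was −1.09 percentage points (−1.56 to −0.66). Among cells with at least 3 CD3 UMIs, members were 3.97% of 2139 at 4 weeks and 6.01% of 1946 at 2 weeks, a difference of −2.04 points (−3.41 to −0.70). They held 602002 and 616624 UMIs, with medians of 5084 UMIs per cell at 4 weeks and 4267 at 2 weeks. No barcode of a member was shared between the libraries, although 8 barcodes of the whole tables were.

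At 4 weeks more cells missed the rule by Sox4 alone than by any other condition. There 240 cells met every other condition but had no Sox4 UMI, against 33 at 2 weeks, and 28 of the members at 4 weeks had exactly 1 Sox4 UMI, against 12 at 2 weeks. For Tox, 83 cells at 4 weeks and 28 at 2 weeks failed that condition alone. For Rag1, Rag2 and Ptcra, 84 cells at 4 weeks and 183 at 2 weeks failed that condition alone. Sox4 is also made by fibroblasts: after every cell was thinned at random to 2500 UMIs, 19.0% of fibroblast-gated cells at 4 weeks and 27.5% at 2 weeks had a Sox4 UMI, against 0.63% and 0.59% for Tox. The other gates used below were 352 double-positive cells at 4 weeks and 584 at 2 weeks (at least 2 UMIs of Rag1 and Rag2, with Cd4 and with Cd8a or Cd8b1), and 453 peripheral-type T cells at 4 weeks and 68 at 2 weeks (CD3 genes, with no Tox, Sox4, Rag or Ptcra UMI).

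A few members held much RNA of another cell type. At 4 weeks 11 of 85 (12.9%) and at 2 weeks 5 of 117 (4.27%) had at least 20 collagen UMIs (Col1a1, Col1a2 and Col3a1), at least 10 smooth muscle UMIs (Acta2, Tagln and Myh11) or at least 10 myeloid UMIs (Lyz2, S100a8 and S100a9). These mixed cells were deep, with medians of 18570 UMIs at 4 weeks and 16029 at 2 weeks, against 4560 and 4208.5 in the other members. One cell at 4 weeks held 669 smooth muscle UMIs, 1 held 418 myeloid UMIs, and 1 cell at 2 weeks held 1104 collagen UMIs. Summed over 8 fibroblast markers, all detected in both libraries, the level was 7661 counts per 1000000 UMIs (CPM) at 4 weeks and 3352 CPM at 2 weeks, and 1148 and 674 CPM without the mixed cells. The 5 macrophage markers summed to 78.1 CPM at 4 weeks, where Csf1r was at 0, and to 1181 CPM at 2 weeks (76.7 and 228 CPM without mixed cells). The 9 thymic epithelial and parathyroid markers summed to 49.8 CPM at 4 weeks and 284 CPM at 2 weeks, with Foxn1, Gcm2 and Tbata at 0 in both. Their part in the differences between times was not tested. Medians of gene lists between times are therefore given with and without mixed cells, an alternative chosen after the data were seen. Ratios and shares of single genes are over all members unless stated otherwise. Because mixed cells were deep, they weigh more in summed levels than in counts of cells.

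Of the 5 genes that mark these cells, Tox and Sox4 belong to the rule, and the other 3 did not enter it. Cd5, on chromosome 19 at 10717116 to 10739002 (mm10, minus strand), encodes a brake on receptor signalling whose level follows signal strength. Cd5 was at 224 CPM in members at 4 weeks and 418 CPM at 2 weeks, against 44.5 and 76.0 CPM in double-positive cells and 114 and 181 CPM in peripheral-type cells. Within each library the members had the most Cd5 of the 3 gates. Ikzf2, on chromosome 1 at 69531214 to 69687245 (minus strand), was at 342 CPM at 4 weeks and 639 CPM at 2 weeks, against 115 and 145 CPM in double-positive cells and 75.6 and 185 CPM in peripheral-type cells. Lef1, on chromosome 3 at 131110471 to 131224356 (plus strand), a partner of TCF-1 in lineage choice, was at 545 CPM at 4 weeks and 1119 CPM at 2 weeks. In double-positive cells Lef1 was at 272 and 306 CPM, and in peripheral-type cells at 340 and 109 CPM. Each of these genes was above both other gates in both libraries. In thinned fibroblast-gated cells, which should lack them, at most 3.10% had a UMI of any of these 3 genes.

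**Figure D1:**
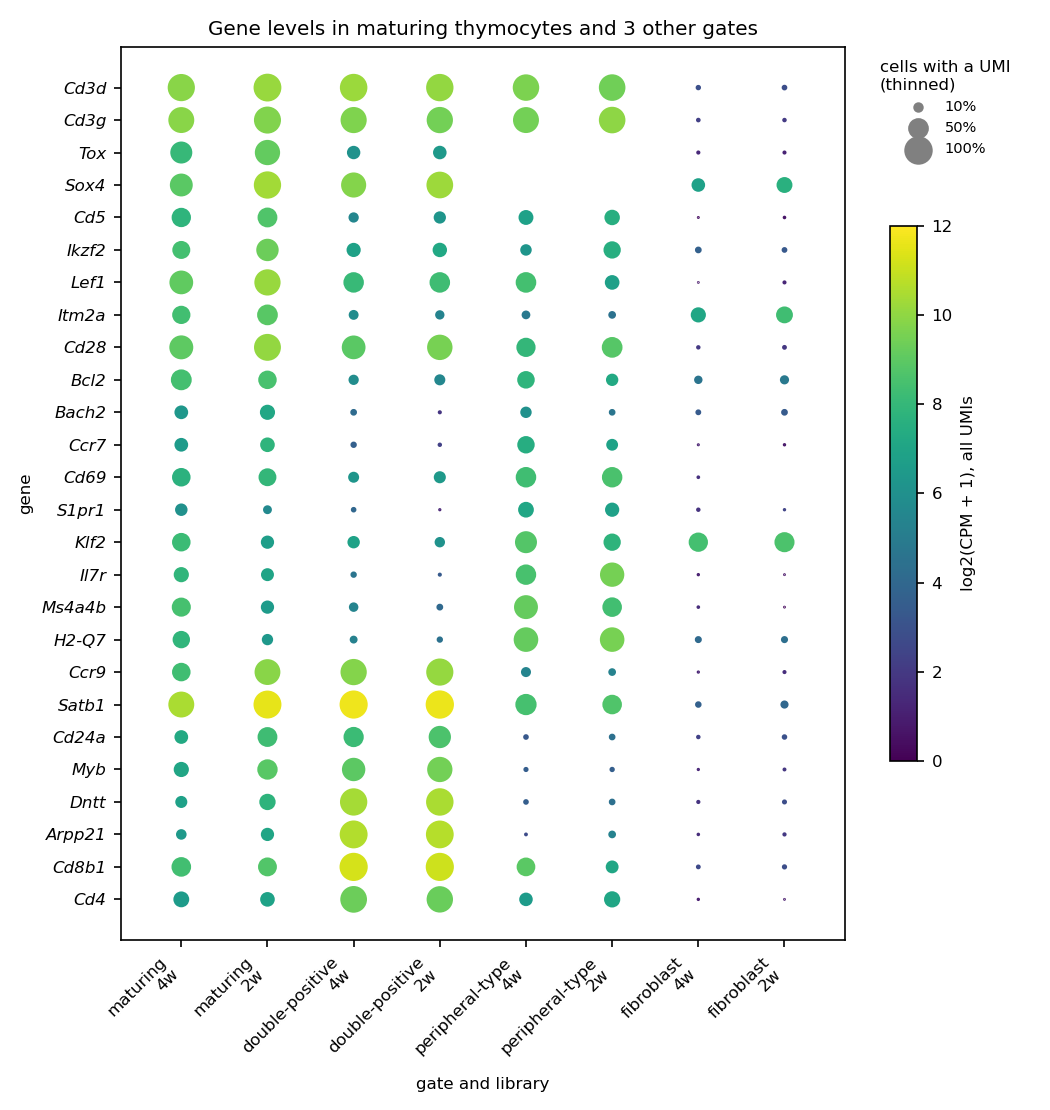
Colour gives log2(CPM + 1) of UMIs summed over each gate (columns, 4 weeks left of 2 weeks) and dot area the percentage of cells with a UMI after thinning to 2500 UMIs, for 26 genes (rows). Tox is absent from the peripheral-type columns and Sox4 likewise because those gates were set on them. Members combine Cd5, Ikzf2, Lef1 and Itm2a with little of Dntt and Arpp21, which are high in double-positive cells.

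The members were not 1 uniform stage. Clustering them on their own gave 6 clusters, numbered 0 to 5, whose genes are a description because the same cells were clustered. The largest, cluster 0, had 17 cells at 4 weeks and 52 at 2 weeks and was led by Colq, Aqp11, Endou, Myb and Cd6. Myb, a transcription factor of immature thymocytes, was at 951 CPM there, and Cd6, a CD5 relative, at 671 CPM. This cluster also had the highest Cd5 (864 CPM), Ikzf2 (1232 CPM), Cd8a (746 CPM) and Bcl2l11 (229 CPM) of the 6, together with the most Sox4 (2009 CPM). S1pr1 was at 0 and Ccr7 at 7.9 CPM in it, and Il7r had 1 UMI. Dntt was at 363 CPM (40 of 69 cells), Arpp21 at 300 CPM (29 of 69) and Ccr9 at 1417 CPM. Cluster 0 thus kept some RNA of the double-positive stage. Its median of 3635 UMIs per cell was the lowest of the 6, and shallow cells more easily lack Rag and Ptcra UMIs. The part of depth was not tested. Cd69 and Nr4a1, which also rise with receptor signals, were at 182 and 320 CPM there, against 398 and 455 CPM in cluster 2.

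Cluster 3, with 9 cells at 4 weeks and 17 at 2 weeks, had the highest Lef1 (2737 CPM) and Itm2a (1226 CPM). Itm2a is a membrane protein induced during positive selection, and 24.6% of thinned fibroblast-gated cells at 4 weeks and 31.4% at 2 weeks also had it. Ccr4, a chemokine receptor of newly selected cells, led it at 157 CPM. Cd8a was at 58.9 CPM there and Cd4 at 186 CPM. Cluster 2, with 9 cells at 4 weeks and 28 at 2 weeks, was led by Gadd45b, Nfkbid, Ccr7, Nr4a1 and Bach2. Nr4a1, which encodes Nur77 and is switched on by receptor signals, was at 455 CPM and Ccr7 at 443 CPM, both the highest of the 6 clusters. Ccr7 was in 25 of the 37 cells of cluster 2, and Nr4a1 in 18 of 37, against 36 of 69 in cluster 0. Bach2, a repressor that keeps T cells naive, was at 278 CPM.

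Cluster 1, with 37 cells at 4 weeks and 16 at 2 weeks, carried the exit genes. Ms4a4b was at 532 CPM in it, S1pr1, the receptor for the exit signal sphingosine 1-phosphate, at 142 CPM, Il7r at 399 CPM, Klf2 at 346 CPM and the class I gene H2-K1 at 1590 CPM. Cd5 was at 169 CPM, Ikzf2 at 311 CPM and Ccr9 at 176 CPM. Lyz2 and Cd74, genes of myeloid and antigen-presenting cells, also led it. For Lyz2, 375 of 587 UMIs came from 1 cell, and 18 of its 53 cells had a UMI, against 38 of 69 in cluster 0. Sox4 was at 341 CPM there, against 2009 CPM in cluster 0. Some cells of cluster 1 also held S100a4 (470 CPM, 11 of 53 cells), Cxcr6 (123 CPM, 10 of 53) and the gamma-delta gene Cd163l1 (95.6 CPM, 4 of 53). In cluster 0 these were at 19.7, 0 and 7.89 CPM, so cluster 1 held more than exit genes.

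Clusters 4 and 5 did not match the label. Cluster 4 (10 cells at 4 weeks and 1 at 2 weeks) was led by the fibroblast genes Clec3b, Igfbp5 and Dpt, with Dcn at 6753 CPM and a median of 18570 UMIs per cell. Cluster 5 (3 cells in each library) was led by Myl10 and Ly6d, had Dntt at 1069 CPM, and had no UMI of Cd4 or Cd8a and 14.1 CPM of Cd5. Both clusters stay unnamed. Because clusters were drawn from genes that also differed between the libraries, their sizes are given only as make-up and not as a result between times.

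**Figure D2:**
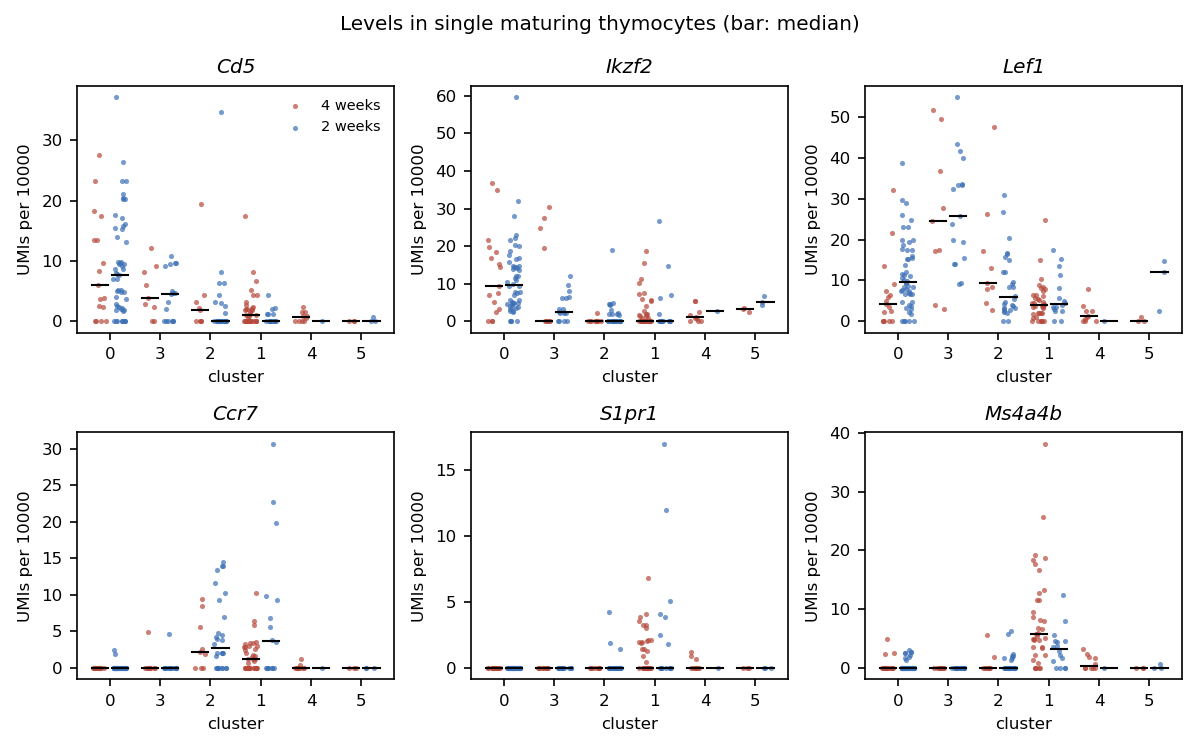
Each point is 1 maturing thymocyte, with its UMIs per 10000 (y axis) for 6 genes, by cluster (x axis, in the order 0, 3, 2, 1, 4, 5) and library (4 weeks left of 2 weeks); black bars are medians. Cd5 and Ikzf2 were highest in cluster 0, Lef1 in cluster 3, Ccr7 in clusters 2 and 1, and S1pr1 and Ms4a4b in cluster 1.

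Co-receptor RNA was low in many members. At 2500 UMIs per cell, which 77 members at 4 weeks and 106 at 2 weeks reached, Cd8a or Cd8b1 without Cd4 was found in 39.0% (28.0 to 50.8) of members at 4 weeks and 38.7% (29.4 to 48.6) at 2 weeks. Cd4 without either Cd8 gene was found in 18.2% (10.3 to 28.6) at 4 weeks and 11.3% (5.99 to 18.9) at 2 weeks. Both were found in 9.09% at 4 weeks and 11.3% at 2 weeks, and neither in 33.8% and 38.7%. The intervals of the 2 libraries overlapped for all 4 classes. On all UMIs the cells with neither made up 20.0% of the 85 members at 4 weeks and 19.7% of the 117 at 2 weeks. Zbtb7b, the master regulator of the CD4 lineage, had only 6 UMIs at 4 weeks and 7 at 2 weeks over all members. Runx3, its CD8 counterpart, was at 96.3 CPM at 4 weeks and 79.5 CPM at 2 weeks. With classes set on all UMIs, 33 cells at 4 weeks and 54 at 2 weeks had Cd8 and no Cd4. Runx3 was at 148 CPM (99.9 to 211) and 95.9 CPM (63.2 to 139) in them. Cd4 and no Cd8 was found in 21 and 16 cells, with Runx3 at 87.9 CPM (46.8 to 150) and 85.3 CPM (39.0 to 162).

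Few members carried Foxp3 or Zbtb16, genes of agonist-selected lineages, but list medians of those lineages were above double-positive cells. The regulatory T list had medians of 2.38 and 1.46 over them at 4 and 2 weeks. Of its 7 genes, 5 and 4 were 2-fold or more higher. The innate-like list had 1.62 and 1.34, with 5 of 9 and 7 of 8 higher. None was 2-fold lower, and 9.48% and 6.67% of all genes were that much higher. Il2ra was in 7 of 53 cells of cluster 1, 2 of 11 of cluster 4 and 6 of 6 of cluster 5. Foxp3, which defines regulatory T cells, was found in 3 of 77 thinned members at 4 weeks (3.90%). At 2 weeks it was found in 0 of 106, with an interval up to 3.42% of cells with a UMI at this thinned depth, and in 0 of 117 on all UMIs. Zbtb16, which encodes PLZF of innate-like T cells, was found in 0 of 77 thinned members at 4 weeks, with an interval up to 4.68%, and in 2 of 106 (1.89%) at 2 weeks. On all UMIs Zbtb16 was found in 5 of 85 members (5.88%) at 4 weeks and 3 of 117 (2.56%) at 2 weeks. These limits concern cells with a UMI at that depth and not cells that express the gene. On all UMIs, 5 of the cells with Zbtb16 were among the 11 of cluster 4, which was led by fibroblast genes, and 3 were in cluster 1. Foxp3 had 6 UMIs in 1 cell of cluster 4 and 2 UMIs in 2 cells of cluster 1. Ikzf2 was in 36.4% (25.7 to 48.1) of thinned members at 4 weeks and 59.4% (49.5 to 68.9) at 2 weeks, intervals that do not meet. On all UMIs the shares were 55.3% (44.1 to 66.1) and 69.2% (60.0 to 77.4), intervals that overlap. Cxcr5 and Il21, of follicular helper T cells, had no UMI at 2 weeks, and 12 and 3 UMIs at 4 weeks. Tbx21, the regulator of type 1 effector cells, had no UMI in either library. The gamma-delta genes Trdc and Tcrg-C1 were not used here.

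Between the times, members at 4 weeks carried less RNA of receptor signalling and of the immature stage and more of maturation and exit than members at 2 weeks. Over 6928 genes with at least 20 UMIs in the 2 libraries together, 9.09% were 2-fold or more higher at 4 weeks and 7.19% were 2-fold or more lower. Without mixed cells these shares were 3.97% and 6.83% of 5742 genes. The median log2 ratio of 4 weeks over 2 weeks over all genes was −0.11, both with and without mixed cells. Each gene list below is read beside these figures, as a description.

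Of the genes that respond to receptor signals, 11 of 14 were measured, of which 4 were 2-fold or more lower at 4 weeks and 1, Egr1, was higher. The median log2 ratio was −0.90. Without mixed cells it was −0.66, with 3 lower and none higher. Nr4a1 was at 81.4 CPM at 4 weeks and 264 CPM at 2 weeks (log2 ratio −1.70, −2.19 to −1.23), or −1.55 without mixed cells. Nfkbid, an inducible regulator of NF-kB, was at 14.9 and 58.4 CPM (−1.97, −3.20 to −0.88). Cd28, the co-stimulatory receptor, was at 512 and 1062 CPM (−1.05, −1.25 to −0.86). Egr1 was at 425 CPM at 4 weeks and 136 CPM at 2 weeks (1.64), and its ratio was 0.63 without mixed cells. Egr1 is also an immediate early gene, and that list of 13 had a median of −0.06, or 0.08 without mixed cells. Cd69, an early activation marker that holds cells in the thymus, was at 204 and 242 CPM (−0.24, −0.60 to 0.11), an interval that includes 0.

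Cd5 was in 42.9% (31.6 to 54.6) of thinned members at 4 weeks and 45.3% (35.6 to 55.2) at 2 weeks, although its log2 CPM ratio was −0.90 (−1.21 to −0.59). Without mixed cells the Cd5 ratio was −0.73. The shares of cells with Cd5 overlapped while the summed level was lower at 4 weeks. For Ikzf2 the ratio was −0.90 (−1.15 to −0.65), or −0.77 without mixed cells, and for Lef1 −1.04 (−1.23 to −0.85), or −0.72. Of these genes, Lef1 was in 67.5% (55.9 to 77.8) of thinned members at 4 weeks and 84.0% (75.6 to 90.4) at 2 weeks.

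The list of negative selection and agonist response had a median of −0.90 over its 9 measured genes, or −0.77 without mixed cells, and 3 of the 9 were 2-fold or more lower at 4 weeks and none higher. Without mixed cells 4 were lower and 1, Nfkb2, was higher. Bcl2l11 was at 48.2 CPM at 4 weeks and 122 CPM at 2 weeks (−1.34, −2.01 to −0.70), or −1.08 without mixed cells. It was in 11.7% (5.49 to 21.0) and 29.2% (20.8 to 38.9) of thinned members. Rel, an NF-kB subunit, was at 43.2 and 125 CPM (−1.53, −2.23 to −0.87), or −1.26 without mixed cells. Nfkb1, another subunit, was at 164 and 162 CPM (0.02).

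Genes of the double-positive stage were lower too. All 14 were measured, 6 were 2-fold or more lower at 4 weeks and none was higher, with a median of −0.93, or −0.69 without mixed cells, where 5 were lower. Ccr9, a chemokine receptor of cortical thymocytes, was at 317 CPM at 4 weeks and 936 CPM at 2 weeks (−1.56, −1.80 to −1.32), or −1.24 without mixed cells. Ccr9 was in 39.0% (28.0 to 50.8) of thinned members at 4 weeks and 81.1% (72.4 to 88.1) at 2 weeks, intervals that do not meet. Myb was at 131 and 469 CPM (−1.84, −2.21 to −1.47), or −1.59 without mixed cells. Cd24a, the heat-stable antigen lost on maturation, was at 150 and 311 CPM (−1.06, −1.44 to −0.69), or −0.61 without mixed cells. Cd8a differed less, at 277 and 311 CPM (−0.17, −0.47 to 0.14).

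Chemokine receptors and position genes, 7 of 10 measured, had a median of −1.14, or −0.81 without mixed cells, with 4 of the 7 lower by 2-fold or more. Besides Ccr9, these were Ccr7, Ccr4 and Cxcr4. Without mixed cells 2 were that much lower, Ccr9 and Ccr4, and 1 was higher, Cxcr6 (1.35). Ccr7, the medulla receptor, was at 91.4 CPM at 4 weeks and 221 CPM at 2 weeks (−1.27, −1.75 to −0.81). Without mixed cells the ratio of Ccr7 was within 2-fold. In thinned members Ccr7 was in 19.5% (11.3 to 30.1) and 22.6% (15.1 to 31.8), which overlap. Ccr4 was at 13.3 and 45.4 CPM (−1.77, −3.12 to −0.60), or −1.25 without mixed cells.

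T cell transcription factors, 13 of 14 measured, had a median of −0.68, with 3 lower by 2-fold or more and none higher. Without mixed cells the median was −0.44, with none lower and 1, Id2, higher. Satb1, a genome organiser of thymocytes, was at 1422 CPM at 4 weeks and 2968 CPM at 2 weeks (−1.06, −1.18 to −0.94), or −0.82 without mixed cells. Tcf7, which encodes TCF-1, was at 653 and 1239 CPM (−0.92), and Ets1 at 669 and 1233 CPM (−0.88). Id2, an inhibitor of E proteins found in more mature cells, was higher, at 186 and 114 CPM (0.71, 0.27 to 1.16), or 1.44 without mixed cells. The 12 genes of the receptor machinery differed little, with a median of −0.41, or −0.21 without mixed cells.

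Maturation and exit genes were higher at 4 weeks. All 14 were measured, 4 were 2-fold or more higher and 2 lower, with a median of 0.58. Without mixed cells 6 were higher and 1 lower, with a median of 0.94. Ms4a4b was at 351 CPM at 4 weeks and 90.8 CPM at 2 weeks (1.95, 1.52 to 2.40). Klf2, the factor that switches on S1pr1, was at 289 and 101 CPM (1.52, 1.10 to 1.97), although fibroblasts also make Klf2 (in 42.6% and 46.6% of thinned fibroblast-gated cells). H2-Q7, a class I gene, was at 229 and 82.7 CPM (1.47, 1.00 to 1.96), and Gimap3, a survival GTPase of T cells, at 176 and 87.6 CPM (1.01, 0.52 to 1.51). Without mixed cells the ratios of Ms4a4b, Klf2, H2-Q7 and Gimap3 were 2.14, 1.39, 1.48 and 1.28. Ms4a4b was in 41.6% (30.4 to 53.4) of thinned members at 4 weeks and 17.9% (11.2 to 26.6) at 2 weeks, and H2-Q7 in 33.8% (23.4 to 45.4) and 12.3% (6.69 to 20.1), in each case with intervals that do not meet.

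Other genes of this list were closer. S1pr1 was at 63.1 and 48.7 CPM (0.38, −0.35 to 1.12), and in 15.6% (8.32 to 25.6) of thinned members at 4 weeks and 6.60% (2.70 to 13.1) at 2 weeks. Il7r was at 231 and 128 CPM (0.85, 0.44 to 1.27), or 1.30 without mixed cells. Bcl2, the survival factor, was at 337 and 368 CPM (−0.13, −0.41 to 0.15). The lower genes were Ccr7, which this list shares, and Gimap6, at 349 and 837 CPM (−1.26), or −1.07 without mixed cells.

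**Figure D3:**
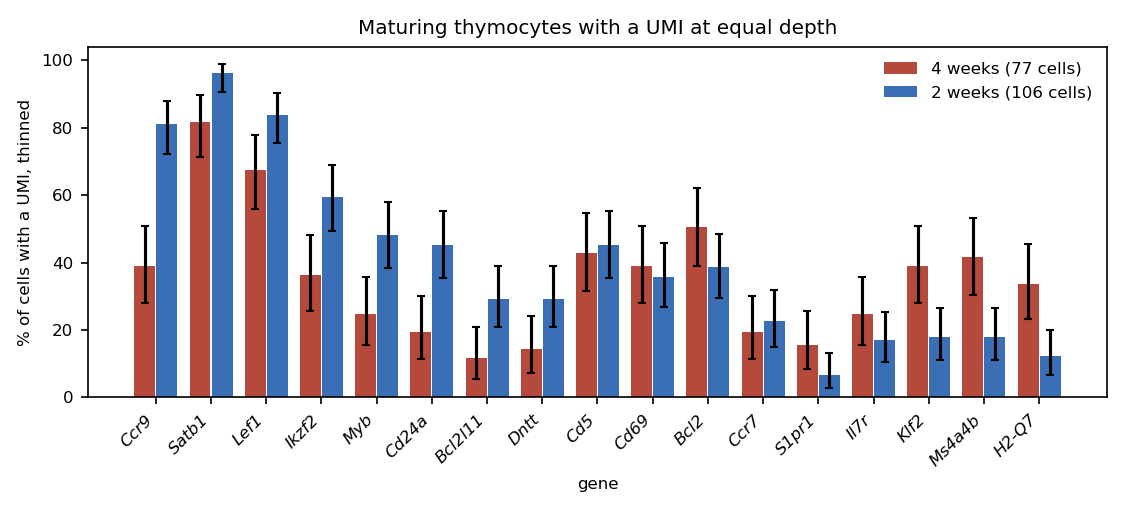
Bars give the percentage of maturing thymocytes with at least 1 UMI of each of 17 genes after thinning to 2500 UMIs, at 4 weeks (left bar, 77 cells) and 2 weeks (right bar, 106 cells), with 95% Clopper-Pearson intervals. Ccr9, Satb1, Ikzf2, Myb and Cd24a are lower at 4 weeks and Klf2, Ms4a4b and H2-Q7 higher with intervals that do not meet, while those of Cd5 and Cd69 overlap. For Ikzf2 the intervals overlap when all UMIs are used.

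Genes of effector and memory T cells and of the interferon response also had higher medians at 4 weeks. For 10 effector and memory genes the median was 0.92, with 5 past 2-fold, or 0.68 without mixed cells with 4 of 9. Ly6a (Sca-1) was at 741 CPM at 4 weeks and 130 CPM at 2 weeks (2.51), or 1.75 without mixed cells. S100a6 was at 1161 and 464 CPM (1.32), or 0.68 without mixed cells. For 11 interferon genes the median was 0.93, with 5 past 2-fold. Over the 6 genes still measured without mixed cells it was 0.91, with 2 past 2-fold. Bst2 was at 199 and 79.5 CPM (1.33, 0.84 to 1.84) and Ifi27l2a at 365 and 169 CPM (1.12, 0.77 to 1.47). Ifit1 had 22 UMIs at 4 weeks and 3 at 2 weeks (2.91, 1.17 to 5.29), in 2.60% and 0.94% of thinned members. Without mixed cells the highest ratio among the measured interferon genes was 1.61, for Bst2, and Ifit1 was no longer among those measured.

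**Figure D4:**
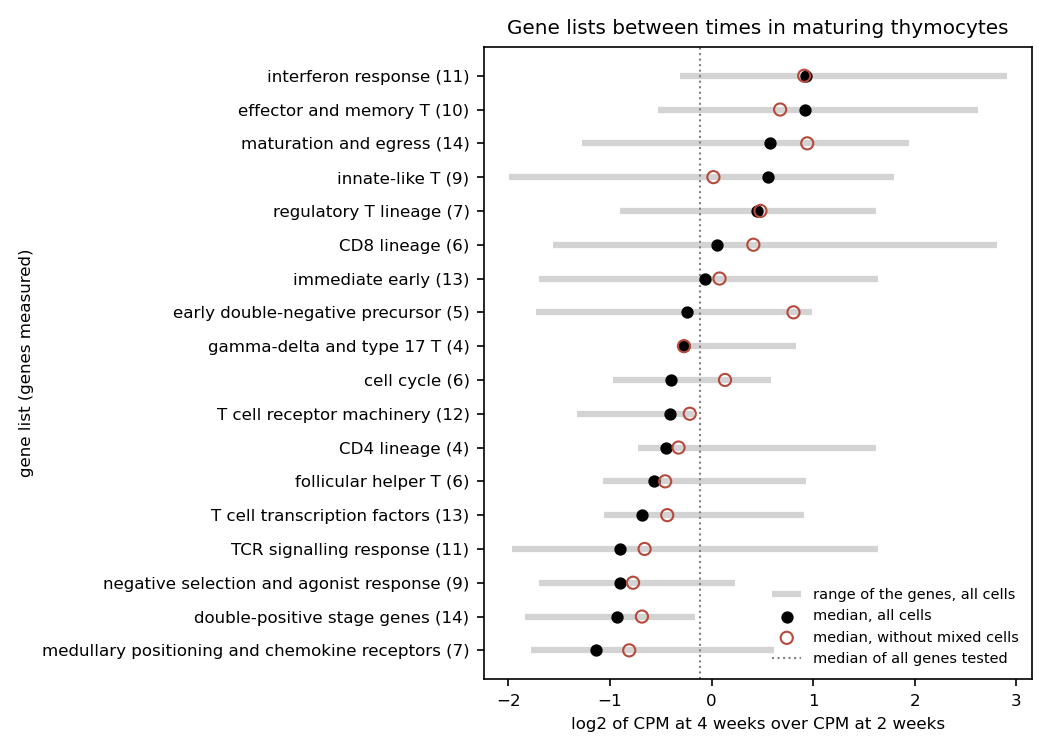
For each gene list (rows, with the number of genes measured) the filled point is the median log2 ratio, 4 weeks over 2 weeks, in all members, the grey line the range of its genes, and the open point the median without mixed cells. The dotted line is the median of all genes tested (−0.11). Double-positive, receptor-response and chemokine receptor lists lie below it and maturation, effector and interferon lists above it.

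Much of this pattern was smaller within clusters 0 and 1, the 2 clusters with more than 10 cells in each library. The receptor-response list had a median of −0.06 within cluster 0 and 0.33 within cluster 1, and the double-positive list 0.18 and −0.16. The maturation list had 0.00 and 0.47. The agonist list had −0.27 and −0.75, against −0.90 over all members. Since clusters were drawn from the same genes, and fewer genes were measured in each, these values describe the cells and do not separate a change in make-up from a change within cells.

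The largest ratios between times included genes of other cell types. Among the 10 highest at 4 weeks were Procr, Pcolce2, Fmo2, Igfbp7 and Timp3, and among the 10 lowest Ccl9, Cxcl3, Lyz1, Cybb and Lpl. For Igfbp7, 60.7% of the UMIs at 4 weeks came from 1 cell, and for Lpl 97.2% of those at 2 weeks. Without mixed cells 2 of the 10 highest, Igfbp5 and Pi16, still drew 93.0% and 88.5% of their UMIs from 1 cell. The others included AW112010 (200 and 39.6 CPM, log2 ratio 2.34), Ms4a4b (2.14), the homing integrin Itgb7 (106 and 26.4 CPM, 2.01) and H2-K1 (1242 and 392 CPM, 1.66). Nkg7, which the rule limits, was among them too. The 10 lowest without mixed cells included Ifngr2, a chain of the interferon gamma receptor, at 32.2 and 155 CPM (−2.27, −3.23 to −1.41). Endou, which also led cluster 0, was at 39.6 and 189 CPM (−2.25), Tiparp at 27.2 and 134 CPM (−2.30) and Bach1 at 66.8 and 238 CPM (−1.83). Gzma, at 52.0 and 194 CPM (−1.90), had 52.4% of its UMIs at 4 weeks and 51.5% of those at 2 weeks in 1 cell. Nrgn, the lowest of the 10 (−4.39), had 96.4% of its UMIs at 2 weeks in 1 cell.

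Set against double-positive cells of the same library, the members had less RNA of that stage. Over 7893 genes, 2.84% were 2-fold or more higher in members in both libraries and 4.81% were lower. The share of higher calls among all calls was 37.1%, and 49.7% with median-of-ratios scaling in place of total counts (298 higher and 301 lower), so the balance of higher and lower depended on scaling. Of 14 double-positive genes, several of which the gate used, 13 were lower at 4 weeks and 9 at 2 weeks, with medians of −2.46 and −1.95. Of all genes 12.4% were 2-fold or more lower at 4 weeks and 11.1% at 2 weeks, beside all-gene medians of −0.15 and −0.11. Dntt, the enzyme that adds bases at receptor joints, was at 113 CPM in members and 1331 CPM in double-positive cells at 4 weeks, and at 217 and 1440 CPM at 2 weeks (log2 ratios −3.56 and −2.73). Arpp21 was at 86.4 against 1552 CPM at 4 weeks and 131 against 1613 CPM at 2 weeks. E2f2, a cell cycle regulator, differed by −3.32 and −3.31.

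Ccr9 and Satb1 were lower in members than in double-positive cells mainly at 4 weeks. Ccr9 differed by −1.44 (−1.67 to −1.22) at 4 weeks and −0.22 (−0.36 to −0.09) at 2 weeks, and Satb1 by −1.23 and −0.14. In double-positive cells Ccr9 itself was at 861 CPM at 4 weeks and 1092 CPM at 2 weeks. The difference between these differences was not tested.

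Maturation genes were higher in members than in double-positive cells in both libraries, with 11 of 14 past 2-fold at 4 weeks and 10 of 14 at 2 weeks and medians of 2.35 and 2.24. Of all genes 9.48% were that much higher at 4 weeks and 6.67% at 2 weeks. Ccr7 was at 91.4 against 11.3 CPM at 4 weeks and 221 against 3.93 CPM at 2 weeks (3.01 and 5.81). Il7r was at 231 against 24.3 CPM and 128 against 9.17 CPM (3.25 and 3.80). Bcl2 was at 337 against 55.9 CPM and 368 against 45.9 CPM (2.59 and 3.01). S1pr1 was at 63.1 against 14.6 CPM and 48.7 against 1.31 CPM. Receptor-response genes had medians of 1.12 and 1.36, with Cd5 at 2.33 and 2.46, Itm2a at 2.62 and 3.55 and Nab2, a co-repressor of the EGR factors, at 2.57 and 3.89. Bcl2l11 was lower in members, at 48.2 against 176 CPM and 122 against 334 CPM.

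The 10 genes with the largest excess over double-positive cells in both libraries were Klk8, Hivep3, Gimap4, Il7r, Ccnd2, Gpr183, Ccr7, Cd53, Gimap3 and Itm2a. Hivep3, a zinc finger protein of the Schnurri family, was at 171 against 16.2 CPM at 4 weeks and 423 against 6.55 CPM at 2 weeks. Gpr183, an oxysterol receptor that guides migrating lymphocytes, was at 78.1 against 8.90 CPM and 56.8 against 6.99 CPM. Ccnd2 was at 402 against 45.3 CPM and 258 against 12.2 CPM (3.15 and 4.40). Without mixed cells all 10 kept log2 ratios of at least 2.87 in both libraries.

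Set against peripheral-type T cells, the members had more RNA of immature genes and less of mature ones. Over 6224 genes, 3.95% were 2-fold or more higher in members in both libraries and 0.852% were lower, and the share of higher calls was 82.3%, or 47.9% with median-of-ratios scaling (126 higher and 137 lower). All-gene medians were 0.35 at 4 weeks and 0.21 at 2 weeks. Double-positive genes had medians of 1.45 and 1.77, with 8 and 11 of 14 higher, where 16.1% and 15.6% of all genes were. Cd24a was at 150 against 8.77 CPM at 4 weeks and 311 against 19.6 CPM at 2 weeks (4.09 and 3.99). Myb was at 131 against 10.6 CPM and 469 against 10.9 CPM (3.63 and 5.43). Satb1 was at 1422 against 350 CPM and 2968 against 410 CPM (2.02 and 2.86). Itm2a was at 334 against 27.8 CPM and 475 against 21.8 CPM (3.59 and 4.45).

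Maturation genes had medians of −0.64 and −1.14 against peripheral-type cells, with 2 and 9 of 14 lower by 2-fold or more, where 3.59% and 8.86% of all genes were. H2-Q7 was at 229 against 570 CPM at 4 weeks and 82.7 against 752 CPM at 2 weeks (−1.31 and −3.19). Itgb7 was at 93.0 against 265 CPM and 25.9 against 423 CPM (−1.51 and −4.03). S1pr1 was at 63.1 against 136 CPM and 48.7 against 111 CPM (−1.11 and −1.19). Cd69 was also lower in members than in peripheral-type cells, at 204 against 321 CPM and 242 against 371 CPM. Effector and memory genes had a median of −0.00 at 4 weeks and −2.32 at 2 weeks, where all 11 were 2-fold or more lower in members. The peripheral-type gate at 2 weeks held 68 cells, against 453 at 4 weeks, and its make-up was not the same: Il7r was at 369 CPM in it at 4 weeks and 718 CPM at 2 weeks, and Lef1 at 340 and 109 CPM.

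**Figure D5:**
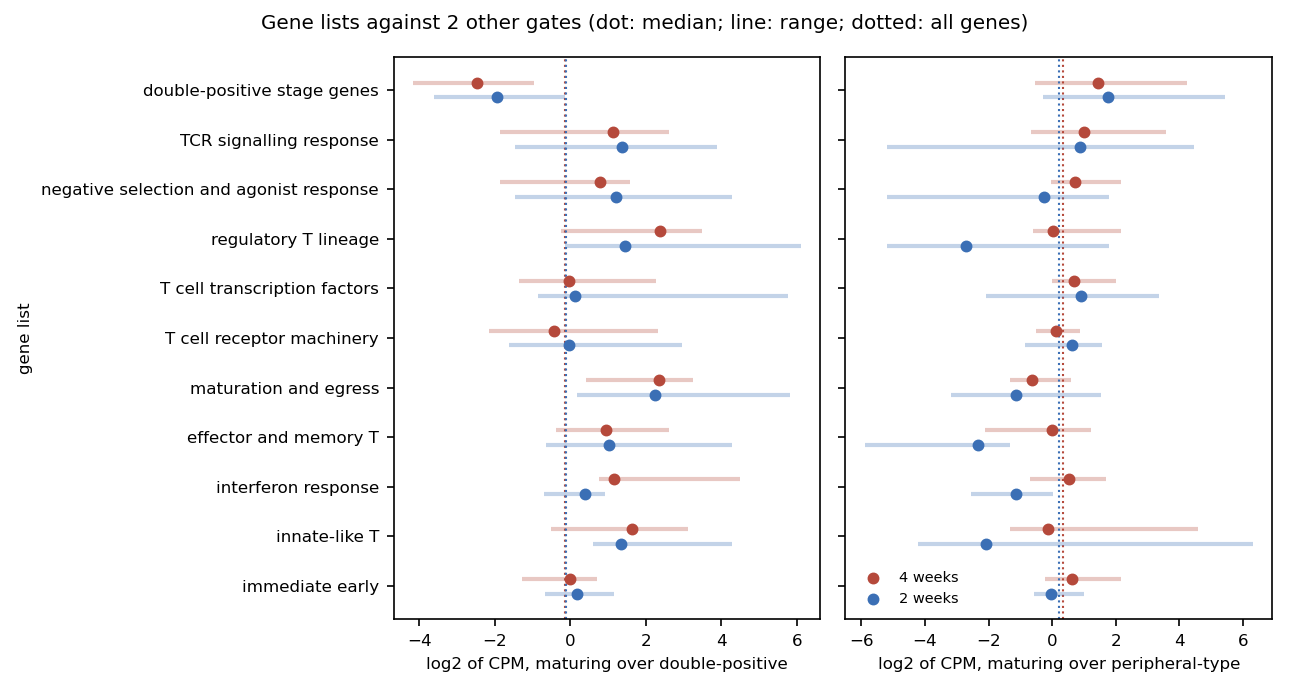
Points give the median log2 ratio of CPM for 11 gene lists (rows) in maturing thymocytes over double-positive cells (left) and over peripheral-type cells (right), at 4 weeks (upper point) and 2 weeks (lower point); lines are the range of the genes and dotted lines the medians of all genes. Double-positive genes lie left of the dotted lines in the first panel and right of them in the second, and maturation genes the other way round.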

How the data were processed

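Per the file headers, the authors made the deposited counts with Cell Ranger 4.0.0. The submitters' processing notes name build mm10. Each value is the number of unique molecules (UMIs) of 1 gene in 1 barcode, not normalised. The library of 4 weeks held 83753250 UMIs in 8565 barcodes and that of 2 weeks 78773018 in 5864. Cells with under 300 genes, under 500 UMIs or over 10% mitochondrial UMIs were left out. Doublets were not removed, and Scrublet was an alternative. UMIs of a gate were summed per library and scaled to 1000000. Log2 ratios have exact conditional binomial intervals and shares Clopper-Pearson intervals. Genes with 0 UMIs were taken to permit at most 3. The intervals were checked on counts simulated with the counting error that they assume. That check does not cover UMIs concentrated in few cells. Members were clustered on 1000 variable genes, 15 components and 15 neighbours (Leiden, resolution 0.5, scanpy 1.11.5, Python 3.11.15). Members, markers and the 27 gene lists (239 of 241 genes in the table) were chosen with earlier results of these data known. Named genes were the 10 highest and 10 lowest ratios with at least 50 UMIs, 50 CPM in either group and an interval excluding 0, leaving out mitochondrial, ribosomal, haemoglobin, sex-linked and unnamed genes and genes far more abundant in another gate, plus list members, markers and cluster-leading genes. Genes named without mixed cells follow the same rule. Gene positions come from GENCODE M21, which matched 98.7% of identifiers.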

Additional observations from a re-analysis of the deposited data

How the results depend on the processing

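The lower share of members at 4 weeks kept its direction under all settings run, between −0.94 and −1.27 points of kept cells and between −2.04 and −3.25 points of CD3 cells. Counts of genes at 2-fold depended on the UMI minimum per gene and on the gates. With a minimum of 1, 2028 genes were higher and 1080 lower at 4 weeks, 617 higher than in double-positive cells, and 589 higher and 129 lower than in peripheral-type cells. With a minimum of 50 these were 248, 229, 105 (and 236 lower), 106 and 17. Genes higher at 4 weeks numbered 294 after Scrublet, 362 with at least 2 Tox UMIs, 140 with gates after thinning, 228 without mixed cells and 235 without clusters 4 and 5, of 630 in the main analysis. With gates after thinning 143 genes were higher than in double-positive cells and 300 lower than in peripheral-type cells. The 53 genes lower than in peripheral-type cells became 87 with at least 2 Tox UMIs, 115 with at least 2 Sox4 UMIs, 112 with cells weighted equally, 90 without the highest cell per gene and 120 without clusters 4 and 5. With median-of-ratios scaling 126 genes were higher and 137 lower. The cause was not tested.

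Among shares of members, with at least 2 Tox UMIs Ikzf2 at 4 weeks was 52.6% (35.8 to 69.0) and Foxp3 0. With gates after thinning, at 4 weeks, Cd4 without Cd8 was 6.06%, both 27.3%, neither 21.2%, S1pr1 6.06%, Ikzf2 48.5% (30.8 to 66.5) and Foxp3 0, and S1pr1 at 2 weeks was 1.25%. On all UMIs, both co-receptors at 2 weeks were 20.5%, neither 20.0% at 4 weeks and 19.7% at 2 weeks, Ikzf2 55.3% and 69.2%, and Zbtb16 at 4 weeks 5.88%.

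Signs turned as follows. The chemokine receptor list over double-positive cells at 2 weeks was −0.069 with at least 2 Tox UMIs, −0.055 with gates after thinning and −0.74 with a minimum of 50. The smooth muscle list between times was −2.17 with at least 2 Sox4 UMIs, −1.79 without the highest cell and −2.07 without mixed cells. With gates after thinning the fibroblast list was −0.35 between times and −2.13 over peripheral-type cells at 4 weeks (−1.90 without clusters 4 and 5), the effector list −0.85 over double-positive cells at 2 weeks, and Ly6d and Dntt −0.41 and −0.36 over peripheral-type cells at 2 weeks. With a minimum of 50 the CD8 list over peripheral-type cells at 2 weeks was 0.24. Without the highest cell the neutrophil list was −0.058 between times, −0.30 over double-positive cells at 4 weeks and 0.16 over peripheral-type cells at 2 weeks, and Lpl between times was 1.48. The precursor list over double-positive cells at 2 weeks was −0.30 without mixed cells and −0.55 without clusters 4 and 5. Among values under alternative settings, 2821 stayed within their spread, 420 moved and 19 reversed. No paired analysis was possible because each time is 1 library. With 85 and 117 cells, a share cannot be fixed more closely than its interval, and low genes such as Foxp3, Zbtb16 and Zbtb7b were near the limit of detection.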
